A study of Mus musculus with 22 samples.

Results

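The comparison described here sets cardiac fibroblast (CF) cultures 3 days after transduction with the MGT vector against untransduced fibroblasts taken at day 0, across all genes on the array. It rests on 4 of the 22 arrays of the series, 2 for MGT day 3 and 2 for day 0, chosen by their labels and not by any measured value. MGT is a retroviral vector that carries the cardiac transcription factors Mef2c, Gata4 and Tbx5 on 1 polycistronic transcript. Cultures that received lacZ, a vector with the bacterial beta-galactosidase gene, were sampled on the same day 3 with 2 arrays and are given as the control for transduction and time in culture. All groups used here, day 0 included, are fibroblasts of CD1 mice of the genotype aMHC-GFP, in which the promoter of Myh6, a cardiac myosin gene, drives a green fluorescent reporter. The cultures are mixed populations of transduced and untransduced cells as far as the labels tell, with no sort stated, and nothing states whether the 2 arrays of a group stem from different cultures or mice. The p-values therefore reflect the spread of these samples alone, which may be technical.

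Direct reprogramming turns fibroblasts into induced cardiomyocytes without passing through a stem cell. Mef2c, Gata4 and Tbx5 bind regulatory regions of heart muscle genes and act together on them. A fibroblast that converts takes on genes of the sarcomere, of calcium release and of excitation, and over time loses genes of matrix production. Day 3 is the earliest time after transduction in the series, and the comparison with day 0 asks what had changed by then from the starting cells.

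Expression was read on 1-colour Agilent mouse arrays. A level is the log2 processed intensity relative to the 75th percentile of the same array, so a level of 0 lies at that percentile, and levels of different genes are not comparable because their probes differ. A difference is a log2 difference of group means with its standard error (SE), and 1 limma fit over all 22 arrays gave the p-values, adjusted by Benjamini-Hochberg with a threshold of 0.05. Between 55.6% and 64.7% of the 59305 non-control spots were well above background on the 6 arrays of MGT day 3, lacZ day 3 and day 0, and precision is limited by there being 2 arrays a group. The median absolute log2 difference between the 2 arrays of a group was 0.083 for MGT day 3, 0.058 for lacZ day 3 and 0.102 for day 0. The MGT day 3 and lacZ day 3 arrays lay together on 1 slide and the day 0 arrays on another, so for every difference from day 0 the slide and the condition cannot be told apart. The difference of MGT day 3 from lacZ day 3 lies within 1 slide. The day 14 lacZ arrays shared the slide of day 0, and their levels are given for genes with large differences. The second of these arrays stood apart from all others, with a 75th percentile of 729 against 1285 to 2124 on the rest.

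The delivered factors were examined first. The 60-base Mef2c probe begins at position 1104 of its transcript and crosses an exon junction, with its ends at chr13:83772788-83775025 on the mm9 build of the array design. Its sequence is shown because it gave by far the largest difference of the delivered factors.
Mef2c probe: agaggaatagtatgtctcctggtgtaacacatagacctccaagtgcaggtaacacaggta
Mef2c levels were 2.84 and 2.95 on the MGT day 3 arrays, -3.89 and -3.88 on the lacZ day 3 arrays and -3.79 and -3.55 on the day 0 arrays. The MGT day 3 arrays stood far above both other groups, which lay close to each other. The difference from day 0 was 6.57 (SE 0.52, adjusted p = 1.31e-07), and from lacZ day 3 it was 6.78 (adjusted p = 4.85e-07). Gata4 levels were 2.87 and 2.90 on the MGT day 3 arrays, 2.72 and 2.62 on the lacZ day 3 arrays and 2.27 and 2.15 on the day 0 arrays. Gata4 was 0.68 (adjusted p = 9.45e-06) above day 0, while its difference from lacZ day 3 was 0.22 (adjusted p = 0.0653) and did not pass. Tbx5 levels were -1.45 and -1.30 on the MGT day 3 arrays, -1.72 and -1.79 on the lacZ day 3 arrays and -3.04 and -1.94 on the day 0 arrays. Its difference from day 0 was 1.12 (adjusted p = 0.00143), and the call was lost when only the 4 arrays of the comparison were fitted (adjusted p = 0.082). The difference of Tbx5 from lacZ day 3 was 0.39 (adjusted p = 0.284), and it passed when only those 4 arrays of day 3 were fitted (adjusted p = 0.027). The Gata4 and Tbx5 probes begin at positions 3227 and 2800 of their transcripts, and the labels do not state how much of either transcript is in the vector, so these 2 probes do not check for the vector.

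Over all genes, the fibroblasts at MGT day 3 differed widely from those at day 0. Of 18061 genes tested, 11265 passed (62.4%), 5283 as higher (29.3%) and 5982 as lower (33.1%), with a median difference of -0.03 over all genes. Higher genes made up 46.9% of the calls, but 50.7% with quantile normalization and 54.95% when the 75th percentile was taken over probes above background on every array, so the balance of directions depends on the scaling. At least 2-fold, 2469 were higher (13.7%) and 1873 were lower (10.4%). Of the 2469, 593 were not well above background on either day 0 array, and of the 1873, 265 were not well above background on either MGT day 3 array. With only probes above background on all 4 arrays, 1676 genes were at least 2-fold higher and 1566 at least 2-fold lower. The excess of rises at 2-fold was much smaller there, so it depends on the filter for dim probes. Among all genes tested, 368 were at least 8-fold higher and 179 at least 8-fold lower, and 160 and 56 at 16-fold. Counts with the stricter filter are not given at these sizes, so no lean towards rises is drawn from them. Cultures with lacZ at day 3 also differed widely from the same day 0 arrays, with 10434 of 18060 genes passing (57.8%), 5200 as higher (28.8%) and 5234 as lower (29.0%). Of these, 2177 were at least 2-fold higher (12.1%) and 1234 at least 2-fold lower (6.83%). Between MGT and lacZ at day 3, 5494 genes passed (30.4%), 2230 higher (12.3%) and 3264 lower (18.1%) with MGT. Higher genes made up 40.6% of these calls, but 51.7% when the 75th percentile was taken over probes above background on every array. At least 2-fold, 793 were higher (4.39%) and 667 lower (3.69%). Since the control vector had almost as many calls against day 0, its counts are given beside each list below. Its values are not given for every named gene. List counts are to be read beside the shares over all genes, 29.3% higher and 33.1% lower for MGT day 3 against day 0. Since both differences from day 0 use the same 2 day 0 arrays, they are set side by side as values only.

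**Figure D1:**
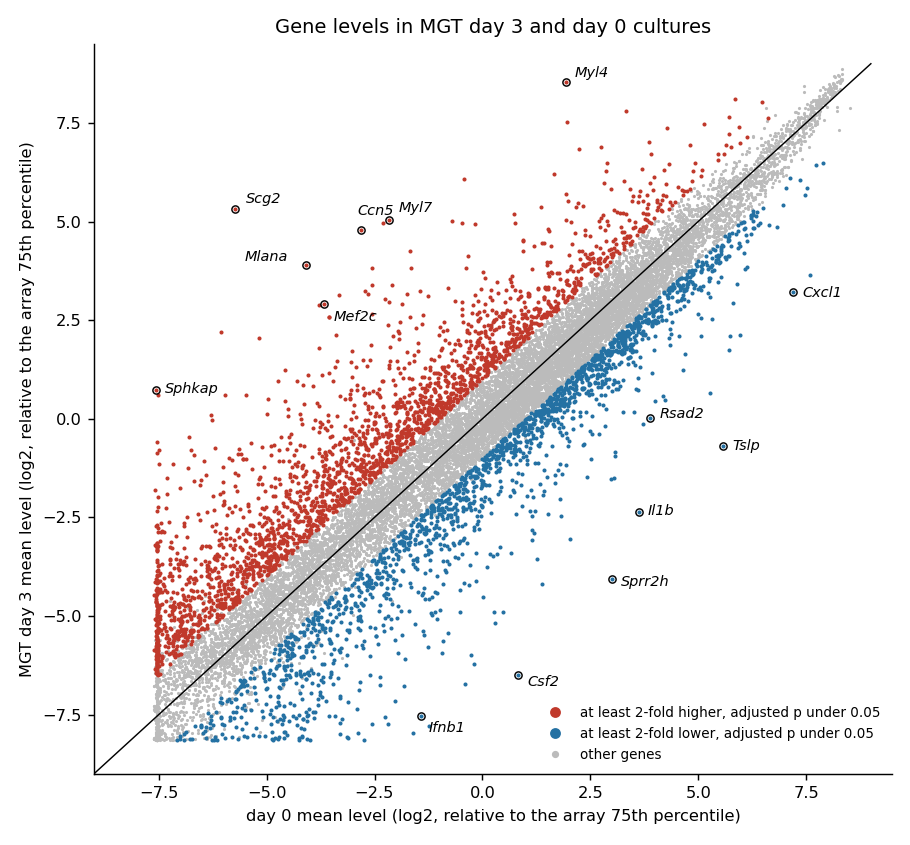
Mean level of each of the 18061 genes in MGT day 3 cultures (vertical axis) against day 0 cultures (horizontal axis), both log2 relative to the array 75th percentile, 2 arrays each, with the line of equal levels. Scg2, Sphkap, Mlana, Ccn5 and Myl7 lie farthest above the line among the labelled genes, and Csf2, Sprr2h, Tslp, Il1b and Ifnb1 farthest below it. The column of points at the left edge holds genes at the lowest signal on the day 0 arrays.

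The sarcomere, the contractile unit of heart muscle, was the gene list with the highest median. Of 32 measured members 24 passed as higher and 3 as lower, with a median of 2.29. With the 2 members below background on both day 0 arrays set to their lowest possible difference, the median was 2.04. In MGT against lacZ cultures at day 3, 24 members were higher and 0 lower (median 2.53). Against day 0 the lacZ cultures had 10 higher and 12 lower (median -0.07). Myl7, the atrial regulatory myosin light chain, had levels of 5.09 and 5.01 on the MGT day 3 arrays, -3.09 and -3.13 on the lacZ day 3 arrays and -2.09 and -2.23 on the day 0 arrays. The MGT arrays stood above day 0 and the lacZ arrays below it. Its difference from day 0 was 7.20 (SE 0.23, adjusted p = 2.47e-11) with MGT and -0.95 (adjusted p = 0.00275) with lacZ. Myl4, the atrial essential light chain, had levels of 8.49 and 8.57 on the MGT day 3 arrays, 3.16 and 3.18 on the lacZ day 3 arrays and 1.96 and 1.90 on the day 0 arrays, a difference of 6.60 (SE 0.11, adjusted p = 7.02e-14) from day 0. Myom2, an M-band protein that ties thick filaments together, had levels of 6.14 and 6.02 on the MGT day 3 arrays, 0.06 and 0.12 on the lacZ day 3 arrays and -0.37 and -0.48 on the day 0 arrays. Its difference was 6.51 (SE 0.40, adjusted p = 1.16e-08). The lacZ and day 0 arrays of Myom2 lay close to each other, whereas the Z-disc protein Ldb3 already differed with lacZ. Ldb3 levels were 3.05 and 3.27 on the MGT day 3 arrays, 0.49 and 0.51 on the lacZ day 3 arrays and -2.71 and -2.61 on the day 0 arrays, and the difference was 5.82 (SE 0.09, adjusted p = 7.02e-14) with MGT and 3.15 (adjusted p = 3.53e-11) with lacZ. A dimmer probe of Ldb3 gave 2.62 with MGT, so the size of this difference depends on the probe. Tnnt2, cardiac troponin T, stood at 7.57 and 7.48 on the MGT day 3 arrays, 5.50 and 5.42 on the lacZ day 3 arrays and 2.03 and 1.89 on the day 0 arrays. It was 5.56 (adjusted p = 5.39e-13) above day 0 with MGT and 3.50 (adjusted p = 7.80e-11) with lacZ. For both genes, named for large differences, the groups ran from MGT at the top through lacZ to day 0. Des, the muscle intermediate filament desmin, had levels of 2.97 and 2.95 on the MGT day 3 arrays, -0.74 and -0.72 on the lacZ day 3 arrays and -2.17 and -2.17 on the day 0 arrays, and its difference was 5.13 (SE 0.06, adjusted p = 8.05e-15).

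Heavy and light chains of ventricular myosin did not follow, as seen from members chosen after their values were known. Myh6, the main heavy chain of the adult mouse heart, had levels of 2.41 and 2.20 on the MGT day 3 arrays, 2.15 and 2.17 on the lacZ day 3 arrays and 2.24 and 2.18 on the day 0 arrays, a difference of 0.10 (adjusted p = 0.566). Myh7, the heavy chain of the fetal mouse ventricle, stood at -2.55 and -2.66 on the MGT day 3 arrays, -2.56 and -2.67 on the lacZ day 3 arrays and 0.07 and -0.25 on the day 0 arrays. Its difference from day 0 was -2.51 (adjusted p = 1.56e-07) with MGT and -2.52 (adjusted p = 2.41e-07) with lacZ. The ventricular light chains fell likewise, Myl2 with a difference of -1.66 (adjusted p = 4.92e-06) and Myl3 with -1.81 (adjusted p = 1.12e-06). Their MGT and lacZ values were close, with differences of 0.08 for Myl2 and 0.15 for Myl3. Titin (Ttn), the elastic scaffold, and cardiac actin (Actc1) were 4.74 and 4.16 above day 0, and 5.85 and 4.19 above lacZ. The probes of Tpm1, an actin-binding tropomyosin gene with several isoforms, disagreed, with 2 called higher and 3 lower, and no direction is given for it. The probes of Myh genes may also read near-identical neighbours.

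**Figure D2:**
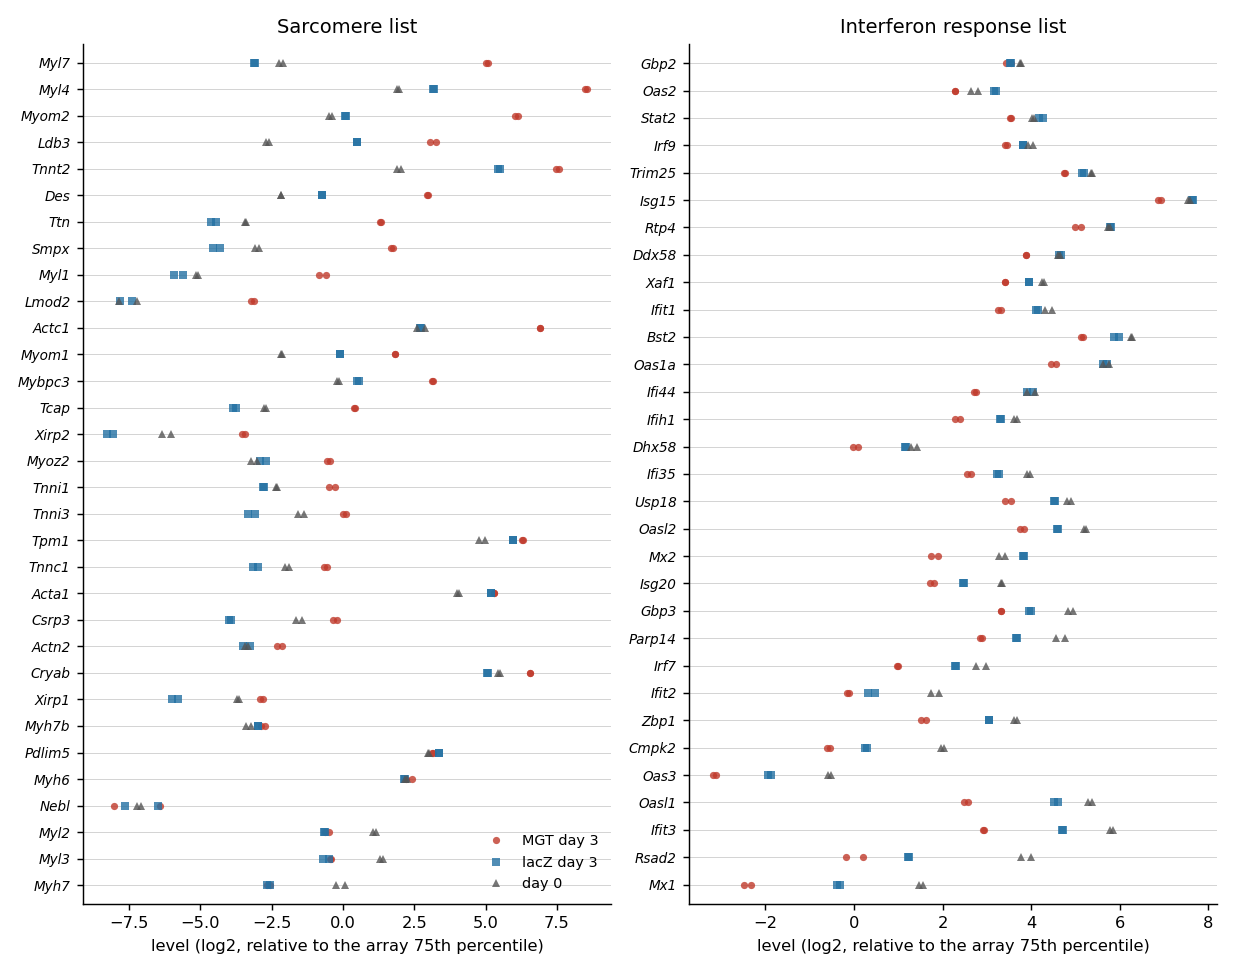
Level of the measured members of the sarcomere list (left) and, with 1 member not shown, of the interferon response list (right) on each array, log2 relative to the array 75th percentile, with 2 arrays each for MGT day 3 (circles), lacZ day 3 (squares) and day 0 (triangles). Genes run from the highest difference between MGT day 3 and day 0 at the top to the lowest at the bottom. In the sarcomere list 24 of 32 members passed as higher in MGT day 3, and in the interferon list 31 of 32 passed as lower.

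The stretch of 250 bases upstream of the RefSeq gene start is shown for 3 muscle genes with large rises that hold a motif named below. Not every such gene holds one, and Des has none in this stretch. The stretches are on the GRCm38.p6 build, each 5′ to 3′ on the gene's own strand. Capitals mark matches to a MEF2 motif or a CArG box, the serum response factor motif, searched by name on both strands, and no printed match overlaps another. Upstream of Casq2 (chr3:102086165-102086414, plus strand) a MEF2 motif begins at base -69 from the gene start, upstream of Myl7 (chr11:5898783-5899032, minus strand) a CArG box begins at base -61, and upstream of Myh8 (chr11:67276874-67277123, plus strand) a MEF2 motif begins at base -99.
Casq2: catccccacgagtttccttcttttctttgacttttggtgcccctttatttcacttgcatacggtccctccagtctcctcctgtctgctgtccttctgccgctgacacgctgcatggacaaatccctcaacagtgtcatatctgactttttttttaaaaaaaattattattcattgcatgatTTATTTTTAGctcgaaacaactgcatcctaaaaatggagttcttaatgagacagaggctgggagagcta
Myl7: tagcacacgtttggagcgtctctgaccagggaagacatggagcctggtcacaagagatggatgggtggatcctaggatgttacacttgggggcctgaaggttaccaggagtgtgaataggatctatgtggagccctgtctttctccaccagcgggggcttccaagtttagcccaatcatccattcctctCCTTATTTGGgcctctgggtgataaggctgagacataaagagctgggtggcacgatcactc
Myh8: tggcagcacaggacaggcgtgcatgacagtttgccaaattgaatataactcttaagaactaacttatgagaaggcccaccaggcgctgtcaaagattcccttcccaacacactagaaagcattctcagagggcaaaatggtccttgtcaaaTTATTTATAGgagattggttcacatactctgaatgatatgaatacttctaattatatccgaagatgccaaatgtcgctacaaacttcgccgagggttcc
Of the 28 sarcomere members with a promoter in the table, 4 held a MEF2 motif (14.3%) and 6 a CArG box (21.4%), against 3.01% and 1.40% of 27025 promoters of all genes and 1.94% and 1.33% of 13790 promoters of the genes tested. Of 109 promoters of genes at least 16-fold higher, 7 held a MEF2 motif (6.42%), and of 45 promoters of genes at least 16-fold lower 2 held one (4.44%). The immediate early list, whose median fell below day 0, had a MEF2 motif in 4 of 17 promoters (23.5%) and a CArG box in 0 of 17. The GATA letters AGATAA were in 6 of the 28 sarcomere promoters (21.4%), against 10.3% of all. The T-box letters AGGTGT were in 2 of them (7.14%), against 12.0% of all. These are matches of letters and do not show binding.

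Many genes of calcium storage and release were higher too. Of 27 measured members of the excitation and calcium list, 18 passed as higher and 2 as lower (median 1.52, or 1.46 with 5 members at their bounds). The lacZ cultures had 11 higher and 4 lower, and the direct comparison of MGT with lacZ had 13 higher and 4 lower. Casq2, the calcium-binding protein of the cardiac sarcoplasmic reticulum, had levels of 2.59 and 2.55 on the MGT day 3 arrays, -2.08 and -2.11 on the lacZ day 3 arrays and -3.66 and -3.47 on the day 0 arrays. Its difference from day 0 was 6.14 (SE 0.12, adjusted p = 3.26e-13). Ryr2, the cardiac calcium release channel, had levels of 0.58 and 0.63 with MGT and -4.93 and -4.88 with lacZ and was not well above background at day 0, so that MGT was at least 65.8-fold higher than day 0 (adjusted p = 1.27e-09). Such a bound sets the mean of the bright group against, on each dim array, the higher of the probe's own signal and the lowest signal that counted as well above background. Trdn, triadin, which anchors the release complex, was at least 34.8-fold higher, and Sphkap, an anchor for protein kinase A that was not well above background with lacZ either, at least 80.3-fold. A dimmer probe of Trdn did not pass (-0.60). Sln, sarcolipin, an inhibitor of the calcium pump found in atrial muscle, had levels of 3.47 and 3.31 on the MGT day 3 arrays, -3.21 and -3.40 on the lacZ day 3 arrays and -2.62 and -2.51 on the day 0 arrays. Its difference from day 0 was 5.96 (adjusted p = 1.66e-09) with MGT and -0.74 (adjusted p = 0.0489) with lacZ. Gja5, the connexin of atrial and conduction cells, rose in both, by 3.86 (adjusted p = 1.37e-10) with MGT and 2.59 (adjusted p = 9.93e-09) with lacZ, while a dimmer probe of the gene did not pass (-0.64). The connexin Gja1 and the calcium pump Atp2a2, named after their values were seen, were 0.64 and 1.90 above day 0, and the second probe of Atp2a2 gave 0.21 and did not pass. The pump inhibitor Pln was above background on both MGT arrays but at a low level, -5.34 and -5.67, and its difference of -0.48 did not pass.

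Endogenous cardiac transcription factors changed less uniformly. Of 20 measured, 9 passed as higher and 5 as lower (median 0.36), against 9 higher and 4 lower with lacZ. Myocd, myocardin, a coactivator of serum response factor, had levels of -0.68 and -0.81 on the MGT day 3 arrays, -2.11 and -1.96 on the lacZ day 3 arrays and -2.75 and -3.57 on the day 0 arrays and a difference of 2.41 (SE 0.20, adjusted p = 2.21e-07). Esrrg, a nuclear receptor of oxidative metabolism, was at least 4.55-fold higher than day 0, where it was below background. Hopx, a homeodomain protein without DNA binding of its own, had a difference from day 0 of 1.60 (adjusted p = 1.48e-06) with MGT and -0.47 (adjusted p = 0.0242) with lacZ. Hand1 went the other way, at least 9.67-fold lower with MGT (adjusted p = 0.00058), and was not well above background on the lacZ arrays. Nkx2-5 and Gata6, core cardiac regulators named after their values were seen, had differences of 0.36 and -0.19 that did not pass.

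Of 14 measured members of the list of cardiac hormones and muscle fuel, 11 passed as higher and 3 as lower, against 6 higher and 4 lower with lacZ. Slc2a4, the insulin-responsive glucose transporter, had levels of 1.29 and 1.27 on the MGT day 3 arrays, -0.85 and -0.76 on the lacZ day 3 arrays and -1.96 and -1.95 on the day 0 arrays, a difference of 3.24 (SE 0.12, adjusted p = 1.02e-10). Pdk4, which holds pyruvate back from oxidation, was 2.19 (adjusted p = 1.01e-07) above day 0 and Fabp3, the fatty acid carrier of heart muscle, 1.52 (adjusted p = 1.13e-07). For both of these the lacZ arrays lay near day 0, with differences of 0.40 for Pdk4 and -0.01 for Fabp3. Mb, myoglobin, had a difference from day 0 of 1.72 (adjusted p = 0.00112) with MGT and -1.24 (adjusted p = 0.0108) with lacZ. The creatine kinase Ckb rose in both, by 2.69 with MGT and 2.11 with lacZ. Nppa, the atrial natriuretic peptide, named with Nppb after its value was seen, was 0.79 (adjusted p = 0.000347) above day 0, while Nppb had a difference of -1.48 (adjusted p = 7.60e-05).

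Skeletal muscle genes were called in both directions, as were all genes tested (29.3% higher and 33.1% lower). Of 22 measured, 9 passed as higher and 3 as lower, against 5 higher and 2 lower with lacZ, and 7 of the 22 were not well above background on either MGT day 3 array and 10 on either day 0 array. The fast heavy chain Myh1 had levels of 2.83 and 2.93 on the MGT day 3 arrays, -1.94 and -1.93 on the lacZ day 3 arrays and -3.76 and -3.81 on the day 0 arrays, a difference of 6.66 (SE 0.14, adjusted p = 7.58e-13). The perinatal heavy chain Myh8 was 3.43 (adjusted p = 1.62e-09) above day 0 and Myh2 3.31 (adjusted p = 2.41e-09). Tnnt3, fast skeletal troponin T, was at least 28.9-fold higher. The myogenic regulators Myod1 and Myog, named after their values were seen, did not pass, and Myog was not above background on any array of MGT day 3 or day 0.

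**Figure D3:**
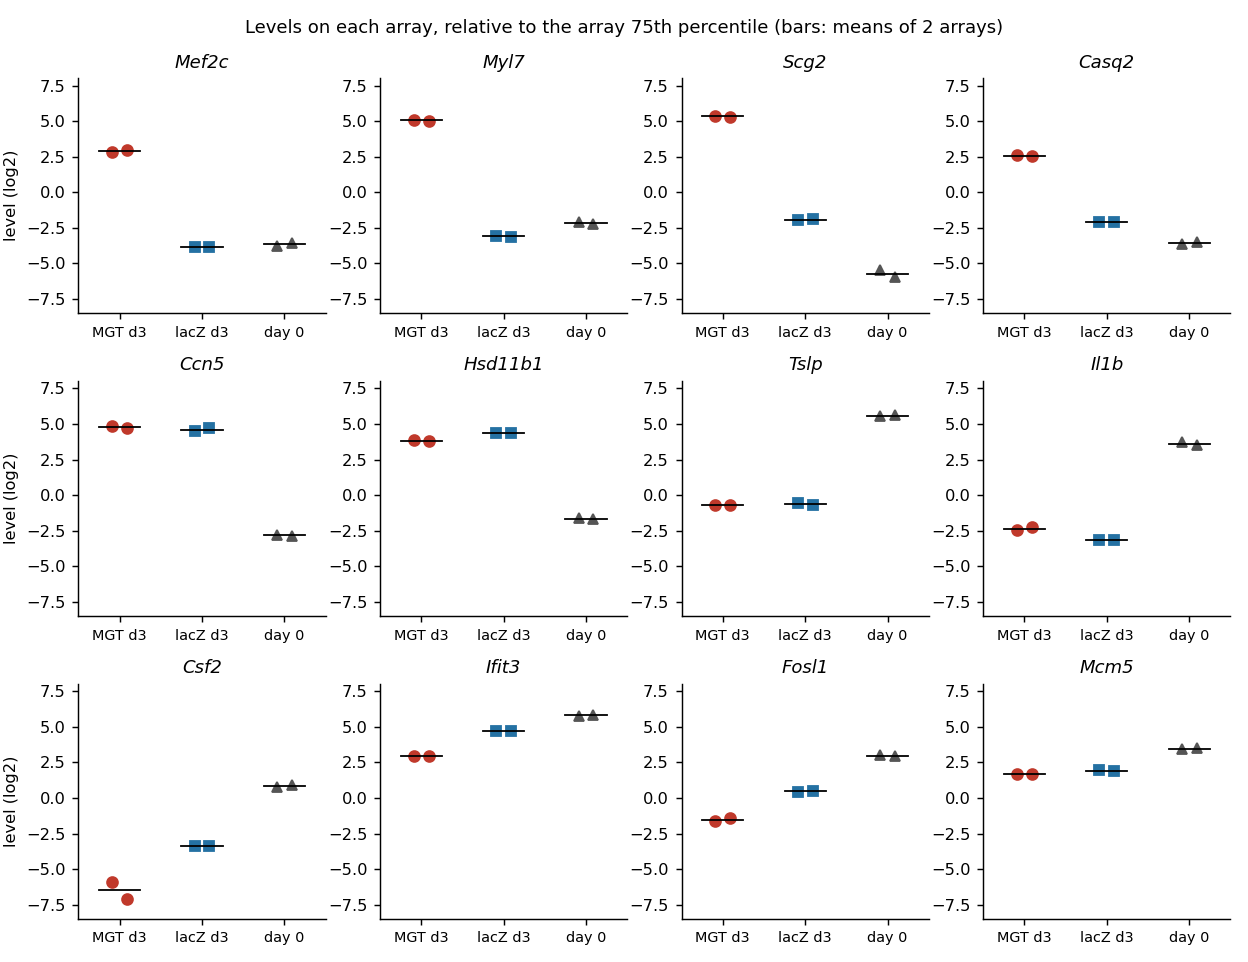
Levels of 12 genes on the 2 arrays of MGT day 3, lacZ day 3 and day 0, log2 relative to the array 75th percentile, with black bars at the group means. Mef2c, Myl7 and Casq2 stand high in MGT day 3, Ccn5 and Hsd11b1 stand high in both day 3 groups, Tslp and Il1b stand low in both, and Csf2, Ifit3 and Fosl1 are lowest in MGT day 3, intermediate in lacZ day 3 and highest at day 0.

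The highest fold bound among the named genes was that of Scg2, secretogranin II, a granule protein of neuroendocrine and atrial cells. Its levels were 5.35 and 5.30 on the MGT day 3 arrays, -1.95 and -1.91 on the lacZ day 3 arrays and -5.50 and -5.97 on the day 0 arrays. It was not well above background at day 0 and was at least 1868-fold higher in MGT day 3 cultures (adjusted p = 8.05e-15). The lacZ arrays lay between the other groups, and the day 14 lacZ arrays, on the slide of day 0, had a mean level of 5.31. Mlana, a melanosome protein, had levels of 3.96 and 3.86 on the MGT day 3 arrays, 0.82 and 0.86 on the lacZ day 3 arrays and -3.97 and -4.20 on the day 0 arrays and a difference of 7.99 (SE 0.12, adjusted p = 2.64e-14), with 4.93 (adjusted p = 6.26e-12) for lacZ. Itgbl1, an integrin-like secreted protein, differed by 7.26 (adjusted p = 2.69e-14) with MGT and 4.72 (adjusted p = 4.11e-12) with lacZ. Dbh, dopamine beta-hydroxylase, which makes noradrenaline, had levels of 2.09 and 2.02 on the MGT day 3 arrays, -1.95 and -1.89 on the lacZ day 3 arrays and -5.30 and -5.04 on the day 0 arrays, a difference of 7.22 (SE 0.10, adjusted p = 1.28e-14). Dbh and Col10a1 were well above background on 1 of the 2 day 0 arrays. Col10a1, a collagen of growth cartilage, had levels of 2.33 and 2.05 on the MGT day 3 arrays, -4.99 and -4.74 on the lacZ day 3 arrays and -7.05 and -5.06 on the day 0 arrays. Its lacZ and day 0 arrays lay close together relative to the MGT difference of 8.24 (adjusted p = 2.95e-09). Among the other large rises, Fhod3, a formin that assembles cardiac actin filaments, differed by 6.40, the cysteine dioxygenase Cdo1 by 6.13, Klhl30 by 5.93, Adamtsl2 by 6.46 and Art4 by 5.96. Each of these also stood above lacZ, by 4.14 for Fhod3, 5.30 for Cdo1, 2.72 for Klhl30, 1.82 for Adamtsl2 and 0.90 for Art4. Below background at day 0, Armh4 was at least 73.5-fold higher, Csdc2 at least 73.3-fold and the relaxin receptor Rxfp1 at least 51.3-fold.

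Some of the largest rises were similar in size with the control vector. Ccn5, a matricellular protein of the CCN family, had levels of 4.84 and 4.73 on the MGT day 3 arrays, 4.48 and 4.68 on the lacZ day 3 arrays and -2.78 and -2.85 on the day 0 arrays. Both day 3 groups stood high, with differences from day 0 of 7.60 (SE 0.11, adjusted p = 2.06e-14) for MGT and 7.39 (adjusted p = 2.05e-13) for lacZ, and a difference between them of 0.21 (adjusted p = 0.174). The day 14 lacZ arrays, on the slide of day 0, had a mean Ccn5 level of 6.09. Hsd11b1, which regenerates active glucocorticoid, had levels of 3.85 and 3.81 on the MGT day 3 arrays, 4.34 and 4.37 on the lacZ day 3 arrays and -1.63 and -1.68 on the day 0 arrays. It was 5.48 (adjusted p = 1.77e-13) above day 0 with MGT and 6.0 (adjusted p = 2.78e-13) above it with lacZ, and its day 14 lacZ mean was 5.15. Spp1, osteopontin, was 4.18 (adjusted p = 5.29e-06) above day 0 with MGT and 4.20 (adjusted p = 7.03e-06) with lacZ. Fam20a, a secretory pathway protein of biomineralization, was 4.11 above day 0 with MGT and 4.01 with lacZ.

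Fibroblast genes were still present at day 3. A summed signal adds the intensities of different probes, so the brightest probes weigh most and it does not measure cell content. All 26 members of the fibroblast identity list were measured, and their summed signal (log2) was 10.81 and 10.85 on the MGT day 3 arrays, 10.81 and 10.84 on the lacZ arrays and 10.32 and 10.31 on the day 0 arrays. Of these members 13 passed as higher and 11 as lower, with a median of 0.29, against 13 higher and 6 lower with lacZ. Between MGT and lacZ there were 6 higher and 14 lower (median -0.38). S100a4, a calcium-binding protein of motile fibroblasts, had levels of 7.38 and 7.36 on the MGT day 3 arrays, 6.80 and 6.80 on the lacZ day 3 arrays and 4.30 and 4.27 on the day 0 arrays and a difference of 3.08 (SE 0.12, adjusted p = 1.55e-10). The falls included Pi16, a marker of resting fibroblasts, at -3.03 and -3.39 on the MGT day 3 arrays, -2.87 and -2.57 on the lacZ day 3 arrays and -0.74 and -0.60 on the day 0 arrays, a difference of -2.54 (SE 0.20, adjusted p = 1.54e-07). Meox1, a homeobox factor of activated fibroblasts, had a difference of -2.39 (adjusted p = 2.13e-10), and the matrix protein dermatopontin (Dpt) of -1.96 (adjusted p = 2.68e-09). Ly6a, the surface antigen Sca-1, had levels of -0.07 and -0.08 on the MGT day 3 arrays, 1.60 and 1.52 on the lacZ day 3 arrays and 1.73 and 1.76 on the day 0 arrays. Its difference from day 0 was -1.82 (adjusted p = 0.000237) with MGT and -0.18 (adjusted p = 0.652) with lacZ, where it did not pass. The defining markers Pdgfra, Thy1, Tcf21, Col1a1 and Vim, named after their values were seen, had differences from day 0 of -0.87, 0.33, 1.32, 0.47 and 0.34, with that of Col1a1 not passing.

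Among matrix genes the collagen and glycoprotein list had 15 higher and 10 lower of 34 measured, against 18 higher and 9 lower with lacZ. The difference of MGT from lacZ at day 3 had 2 higher and 14 lower. Col5a3, a fibrillar collagen chain, had levels of -1.55 and -1.47 on the MGT day 3 arrays, -0.85 and -0.86 on the lacZ day 3 arrays and 3.17 and 2.92 on the day 0 arrays, a difference of -4.55 (SE 0.24, adjusted p = 2.31e-09), and its day 14 lacZ mean was -1.02. Tnc, tenascin C, of healing wounds, differed by -2.81 (adjusted p = 3.07e-08) with MGT and -2.85 (adjusted p = 4.45e-08) with lacZ. Col11a1, another fibrillar collagen, went up in both, by 4.01 (adjusted p = 5.95e-13) with MGT and 5.08 (adjusted p = 2.93e-13) with lacZ, and MGT stood lower than lacZ, with a difference of -1.07 (adjusted p = 7.11e-07). Col12a1, a fibril-associated collagen, had levels of 3.41 and 3.55 on the MGT day 3 arrays, 1.32 and 1.37 on the lacZ day 3 arrays and 2.09 and 1.79 on the day 0 arrays, and its difference from day 0 was 1.54 (adjusted p = 9.72e-09) with MGT and -0.59 (adjusted p = 0.000116) with lacZ. Beside 13 higher and 4 lower with lacZ, 14 of 25 measured proteases and inhibitors passed as higher and 6 as lower with MGT. Leaving out 1 of the 4 arrays left 9 or 10 of them higher. The collagenase Mmp13 differed by -3.35 (adjusted p = 1.13e-07) and Adamts15 by 4.20 (adjusted p = 7.57e-11), the second also above lacZ by 3.21.

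Most contractile genes of smooth muscle and myofibroblasts rose in both day 3 groups. Of 16 measured 12 passed as higher and 2 as lower, and with lacZ 12 higher and 2 lower, while between MGT and lacZ there were 3 higher and 5 lower. Cnn1, calponin, had levels of 4.25 and 4.25 on the MGT day 3 arrays, 4.86 and 4.87 on the lacZ day 3 arrays and 0.99 and 0.90 on the day 0 arrays. Cnn1 was 3.31 (adjusted p = 4.70e-12) above day 0 with MGT and 3.93 (adjusted p = 3.22e-12) with lacZ. Itga8, an integrin chain of myofibroblasts, was 2.72 above day 0 with MGT and 2.49 with lacZ. Myh11, the smooth muscle heavy chain, was at least 9.46-fold higher than day 0.

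Interferon-stimulated genes fell as a group. Type I interferon is a secreted antiviral signal that switches on these genes in the cells that receive it. Of 32 measured members 0 passed as higher and 31 as lower, with a median of -1.33. The lacZ cultures had 1 higher and 16 lower (median -0.35), and MGT was lower than lacZ in 31 of the 32 (median -0.83). Only Gbp2, a guanylate-binding protein, did not pass, at -0.27 from day 0. The ligand gene itself, Ifnb1, was not well above background with MGT and had levels of -3.79 and -3.83 with lacZ and -1.30 and -1.52 at day 0, so that MGT was at least 21.4-fold lower than day 0 (adjusted p = 6.17e-06). It was lower than lacZ as well (adjusted p = 0.0014). Mx1, an antiviral GTPase, had levels of -2.33 and -2.48 on the MGT day 3 arrays, -0.38 and -0.32 on the lacZ day 3 arrays and 1.56 and 1.47 on the day 0 arrays, a difference of -3.92 (SE 0.36, adjusted p = 6.63e-07). Rsad2, viperin, had levels of 0.21 and -0.18 on the MGT day 3 arrays, 1.22 and 1.24 on the lacZ day 3 arrays and 4.01 and 3.77 on the day 0 arrays, a difference of -3.88 (SE 0.36, adjusted p = 6.99e-07). Ifit3, which binds viral RNA complexes, was at 2.93 and 2.92 on the MGT day 3 arrays, 4.72 and 4.69 on the lacZ day 3 arrays and 5.77 and 5.85 on the day 0 arrays, a difference of -2.88 (SE 0.23, adjusted p = 1.91e-07). In each of these genes, named for large differences from day 0, the lacZ arrays lay between MGT and day 0. Oas3 and Oasl1, of the oligoadenylate synthetase family, differed by -2.59 (adjusted p = 8.47e-05) and -2.79 (adjusted p = 4.69e-07), and the nucleotide kinase Cmpk2 by -2.57 (adjusted p = 1.88e-06). Slfn4, a further interferon-responsive gene, was at least 49.8-fold lower.

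The upstream 250 bases of 2 of these genes, on GRCm38.p6, are shown because they hold the interferon response element, searched on both strands as a pair of GAAA separated by any 2 bases. Capitals mark its matches and, in Rsad2, a T-box match that begins at base -76. Upstream of Ifit3 (chr19:34583279-34583528, plus strand) the elements begin at bases -156 and -122 from the gene start, and upstream of Rsad2 (chr12:26456453-26456702, minus strand) 1 begins at base -120.
Ifit3: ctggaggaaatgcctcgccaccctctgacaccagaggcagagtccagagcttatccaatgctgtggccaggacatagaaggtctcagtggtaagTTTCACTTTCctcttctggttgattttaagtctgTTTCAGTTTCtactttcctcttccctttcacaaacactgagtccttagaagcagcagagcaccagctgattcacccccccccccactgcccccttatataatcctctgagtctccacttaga
Rsad2: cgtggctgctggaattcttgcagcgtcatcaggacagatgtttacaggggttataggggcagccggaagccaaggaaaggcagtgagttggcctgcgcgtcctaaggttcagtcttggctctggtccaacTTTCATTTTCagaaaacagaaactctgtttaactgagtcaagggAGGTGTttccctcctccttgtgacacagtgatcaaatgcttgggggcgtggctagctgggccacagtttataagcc
Of the 23 interferon members with a promoter in the table, 10 held this element (43.5%), against 3.04% of all promoters.

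Antigen presentation genes were mostly lower. Of 16 measured, 0 passed as higher and 14 as lower, against 1 higher and 12 lower with lacZ. The immunoproteasome subunits Psmb8 and Psmb9 differed by -1.61 (adjusted p = 9.17e-06) and -2.08 (adjusted p = 3.29e-07), and the peptide transporter Tap1 by -1.90 (adjusted p = 6.03e-07). The class II genes Cd74 and H2-Ab1 had differences of -3.86 (adjusted p = 2.68e-08) and -3.77 (adjusted p = 2.08e-10), and with lacZ of -3.30 and -4.25. Cd74 levels were -3.83 and -3.70 on the MGT day 3 arrays, -3.13 and -3.29 on the lacZ day 3 arrays and 0.13 and 0.06 on the day 0 arrays. Both are genes of antigen-presenting cells. The summed signal of the macrophage marker list, given below, was higher at day 3 than at day 0, and its part in these values was not tested.

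Most inflammatory cytokines and chemokines fell in both day 3 groups. Of 33 measured 2 passed as higher and 28 as lower (median -1.55), and with lacZ 1 higher and 27 lower (median -1.67). Il1b, interleukin 1 beta, had levels of -2.44 and -2.28 on the MGT day 3 arrays, -3.16 and -3.19 on the lacZ day 3 arrays and 3.75 and 3.49 on the day 0 arrays. The difference was -5.98 (SE 0.33, adjusted p = 4.28e-09) with MGT and -6.80 (adjusted p = 2.26e-09) with lacZ, and the day 14 lacZ mean, on the slide of day 0, was -2.67. Tslp, a cytokine of barrier tissues, had levels of -0.69 and -0.71 on the MGT day 3 arrays, -0.54 and -0.73 on the lacZ day 3 arrays and 5.55 and 5.62 on the day 0 arrays, with differences of -6.29 (SE 0.16, adjusted p = 4.33e-12) for MGT and -6.22 (adjusted p = 1.36e-11) for lacZ, and a day 14 lacZ mean of -3.0. Csf3, the granulocyte growth factor, had a difference of -5.47 (adjusted p = 6.07e-05) with MGT, and the neutrophil chemokine Cxcl1 of -3.97 (adjusted p = 8.43e-09). Cxcl1 levels were 3.19 and 3.25 on the MGT day 3 arrays, 3.48 and 3.50 on the lacZ day 3 arrays and 7.18 and 7.20 on the day 0 arrays. Csf2, a growth factor of granulocytes and macrophages, was not well above background with MGT and had levels of -3.37 and -3.39 with lacZ and 0.75 and 0.90 at day 0, so that MGT was at least 101-fold lower than day 0 (adjusted p = 7.37e-09). Ccl5, a chemokine for T cells that interferon also induces, had levels of 0.68 and 0.63 on the MGT day 3 arrays, 2.46 and 2.51 on the lacZ day 3 arrays and 5.38 and 5.15 on the day 0 arrays, a difference of -4.61 (SE 0.12, adjusted p = 3.26e-12) with MGT and -2.78 (adjusted p = 5.83e-10) with lacZ. Between MGT and lacZ the list had 3 higher and 12 lower. The exceptions above day 0 were the acute-phase gene Saa3, at 2.82 (adjusted p = 4.11e-08), and the alarmin Il33, at 0.72 (adjusted p = 0.00265), both named after their values were seen. Probes of the chemokine gene Cxcl12 passed in both directions, at 1.92 and -0.77, so no direction is given for it. With the mean of the probes of a gene, 3 members of the list were higher and 27 lower.

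Immediate early genes, transcription factors that cells switch on within minutes of growth signals, were mostly lower too. Of 21 measured 2 passed as higher and 18 as lower (median -1.56), against 3 higher and 14 lower with lacZ (median -0.84). Fosl1, an AP-1 subunit of wounded and growing cells, had levels of -1.65 and -1.43 on the MGT day 3 arrays, 0.42 and 0.50 on the lacZ day 3 arrays and 3.0 and 2.96 on the day 0 arrays, a difference of -4.51 (SE 0.10, adjusted p = 1.12e-12), and stood -1.99 (adjusted p = 1.11e-08) from lacZ. Egr2 differed by -3.0 (adjusted p = 2.72e-10), Fosb by -2.45 (adjusted p = 2.16e-08) and Myc by -2.28 (adjusted p = 8.59e-09). Egr4 was at least 12.6-fold lower than day 0 and also lower than lacZ (adjusted p = 3.75e-08).

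The largest falls also held the following single genes, which belong to no list used here. Sprr2h, a small proline-rich protein of the cornified envelope, had levels of -4.49 and -3.61 on the MGT day 3 arrays, -5.77 and -5.87 on the lacZ day 3 arrays and 3.03 and 2.97 on the day 0 arrays. Its differences were -7.05 (SE 0.54, adjusted p = 1.10e-07) with MGT and -8.82 (adjusted p = 2.13e-08) with lacZ, and the day 14 lacZ mean was -6.87. One of the lacZ day 3 arrays was not well above background. Lce1g and Lce1i, of the late cornified envelope, differed by -5.16 (adjusted p = 6.38e-09) and -4.64 (adjusted p = 1.37e-09), and the desmosome gene Pkp1 by -5.56 (adjusted p = 2.52e-09). Pkp1 also stood -3.06 (adjusted p = 3.85e-06) from lacZ. Probes of the Sprr2 and Lce1 families may read near-identical copies. Further large falls were Spic, a macrophage transcription factor (-5.37), Ptchd1 (-4.73), the neuronal factor Phox2a (-4.37) and Cyp1a1, an enzyme induced through the aryl hydrocarbon receptor (-4.52). Cyp1a1 levels were -4.71 and -4.30 on the MGT day 3 arrays, -0.62 and -0.61 on the lacZ day 3 arrays and 0.04 and -0.01 on the day 0 arrays, and MGT differed from lacZ by -3.89 (adjusted p = 1.92e-05). Has1, hyaluronan synthase 1, was at least 47.4-fold lower, Hfm1, a meiotic helicase, at least 24.2-fold and Reln, reelin, at least 18.8-fold.

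**Figure D4:**
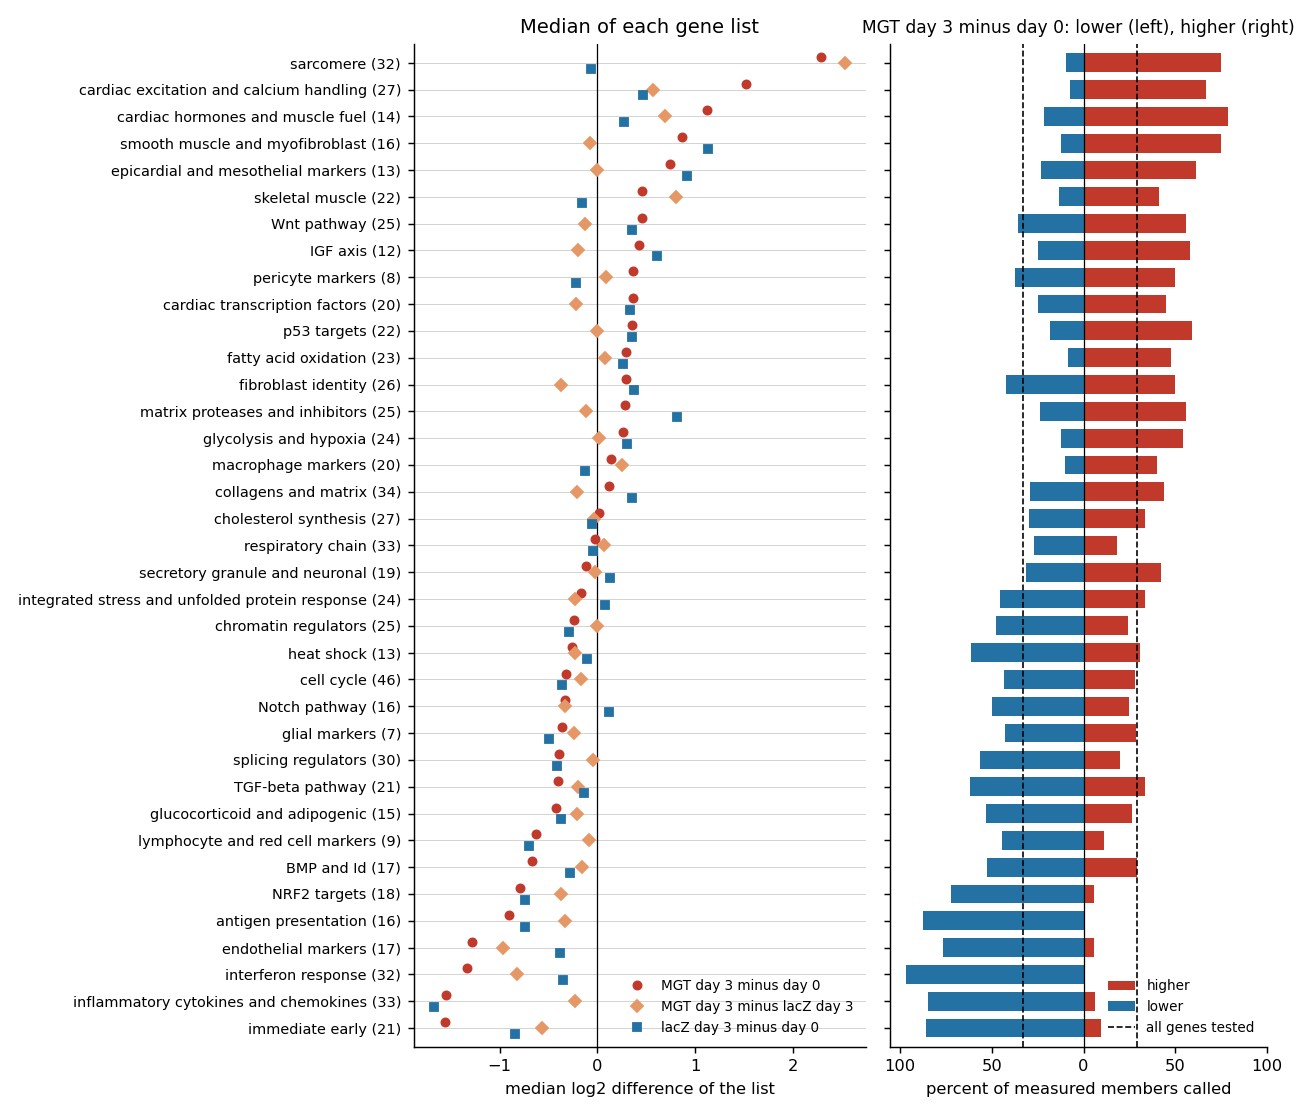
Left, the median log2 difference of each of the 37 gene lists for MGT day 3 minus day 0 (circles), MGT day 3 minus lacZ day 3 (diamonds) and lacZ day 3 minus day 0 (squares), with the number of measured members in brackets. Right, the percent of measured members called higher (to the right) or lower (to the left) in MGT day 3 minus day 0, with dashed lines at the shares over all genes tested, 29.3% and 33.1%. The sarcomere list has the highest median, 2.29, and the immediate early and inflammatory lists the lowest, -1.56 and -1.55.

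The cell cycle list had members called in both directions, as had all genes tested (29.3% higher and 33.1% lower). Of 46 measured 13 passed as higher and 20 as lower (median -0.32), and with lacZ 16 higher and 20 lower, while between MGT and lacZ there were 1 higher and 9 lower. Genes of DNA replication were among the falls, as seen after the values were known. Mcm5, a subunit of the replicative helicase, had levels of 1.72 and 1.66 on the MGT day 3 arrays, 1.96 and 1.89 on the lacZ day 3 arrays and 3.42 and 3.52 on the day 0 arrays, a difference of -1.78 (SE 0.17, adjusted p = 8.09e-07). The other 5 helicase subunits of the list, Mcm2, Mcm3, Mcm4, Mcm6 and Mcm7, differed by -1.63, -1.11, -1.36, -1.44 and -1.35. Cdc6, which loads the helicase, differed by -1.79 (adjusted p = 3.16e-06), and the S phase regulator Mybl2 by -1.93 (adjusted p = 1.93e-08). Mitotic members of the list, also picked after the values were known, had no single direction. Cyclin B2 (Ccnb2), Plk1 and Cenpa were 0.91, 0.52 and 1.65 above day 0, Foxm1 had a difference of -0.96 and passed as lower, and Mki67, Birc5 and Tpx2 did not pass, at -0.27, -0.07 and 0.08. The kinase inhibitors Cdkn2a and Cdkn2b rose by 1.81 (adjusted p = 3.49e-08) and 2.43 (adjusted p = 1.51e-09). Cdkn2b levels were 1.90 and 1.86 on the MGT day 3 arrays, 2.71 and 2.71 on the lacZ day 3 arrays and -0.49 and -0.61 on the day 0 arrays, and MGT differed from lacZ by -0.82 (adjusted p = 0.000167). Of 22 p53 targets 13 passed as higher and 4 as lower, against 13 higher and 3 lower with lacZ. Btg2 (2.03) and Sesn1 (1.98) were among those higher with MGT, while Plk2 was lower (-1.84).

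Splicing and chromatin genes leaned lower. Of 30 splicing regulators 6 passed as higher and 17 as lower, against 5 higher and 18 lower with lacZ. Probes of 3 of these, Mbnl2, Qk and Rbfox2, passed in both directions. Srsf3, a general SR splicing factor, and Celf1 differed by -1.47 (adjusted p = 1.98e-10) and -1.60 (adjusted p = 8.84e-11). The heart splicing factor Rbm20 went up, at least 3.05-fold, from below background at day 0. Rbm24, a further muscle splicing factor, had a difference from day 0 of 1.11 (adjusted p = 0.00112) with MGT, lost with quantile normalization (adjusted p = 0.118), and -1.50 (adjusted p = 0.000118) with lacZ. Of 25 chromatin regulators 6 passed as higher and 12 as lower, against 5 higher and 14 lower with lacZ. The maintenance DNA methyltransferase Dnmt1 and its partner Uhrf1 differed by -1.45 (adjusted p = 1.07e-05) and -1.54 (adjusted p = 6.49e-06). Smarcd3, a heart subunit of the SWI/SNF complex, had levels of 2.63 and 2.57 on the MGT day 3 arrays, 1.84 and 1.83 on the lacZ day 3 arrays and 1.40 and 1.36 on the day 0 arrays, a difference of 1.22 (SE 0.09, adjusted p = 7.15e-08), and the demethylating enzyme Tet1 was 1.26 (adjusted p = 3.43e-05) above day 0.

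Metabolic lists moved less. Of 23 fatty acid oxidation genes 11 passed as higher and 2 as lower, against 10 higher and 3 lower with lacZ. Among them the thiolase Acaa2 had a difference with MGT of 2.14 (adjusted p = 1.52e-09) from day 0 and 1.57 from lacZ. Of 33 respiratory chain subunits 6 passed as higher and 9 as lower (median -0.03), against 4 higher and 10 lower with lacZ. The MGT lean turned to 12 higher and 7 lower with the 75th percentile over probes above background on every array. Cytochrome c (Cycs) was at -1.13 (adjusted p = 6.42e-08) with MGT. Of 24 glycolysis and hypoxia genes 13 passed as higher and 3 as lower, against 11 higher and 3 lower with lacZ. Among them the oxygen sensor Egln3 had a difference from day 0 of 2.06 (adjusted p = 8.43e-09) with MGT and -0.41 (adjusted p = 0.0116) with lacZ. Of 27 cholesterol and lipid synthesis genes 9 passed as higher and 8 as lower, against 7 higher and 8 lower with lacZ. The desaturase Scd2 was 3.04 (adjusted p = 9.98e-10) above day 0 with MGT.

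NRF2 targets, the genes of oxidant defence, were mostly lower, 13 of 18 with 1 higher (median -0.80), against 3 higher and 11 lower with lacZ. Nqo1, a quinone reductase, and Srxn1, sulfiredoxin, differed by -1.70 (adjusted p = 3.59e-08) and -1.52 (adjusted p = 1.66e-08). Of 13 heat shock genes 4 passed as higher and 8 as lower, against 4 higher and 5 lower with lacZ. The inducible chaperone Hspa1a differed by -2.98 (adjusted p = 1.13e-10), whereas Hspb7, a small heat shock protein of heart muscle, was 3.06 (adjusted p = 1.07e-10) above day 0, at levels of 3.33 and 3.20 on the MGT day 3 arrays, 1.96 and 1.99 on the lacZ day 3 arrays and 0.14 and 0.26 on the day 0 arrays. Of 24 genes of the integrated stress and unfolded protein responses 11 passed as higher and 7 as lower with lacZ. With MGT 8 passed as higher and 11 as lower. Leaving out 1 of the 4 arrays left 8 higher and 6 to 8 lower, so the lean towards lower did not hold. The pseudokinase Trib3 was 2.03 above day 0 and the endoplasmic reticulum protein Creld2 had a difference of -1.28. The glucocorticoid and adipogenic list had 2 higher and 8 lower with lacZ. Of 15 glucocorticoid and adipogenic genes 4 passed as higher and 8 as lower (2 and 8 without the first day 0 array), with the glucocorticoid targets Fkbp5 and Per1 at -1.16 and -0.98.

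Each of the signalling lists had members called in both directions, as had all genes tested (29.3% higher and 33.1% lower). Of 25 Wnt pathway genes 14 passed as higher and 9 as lower, against 13 higher and 8 lower with lacZ. Probes of Nkd2 passed in both directions, at 2.13 and -1.62, so no direction is given for it. Wif1, a secreted Wnt inhibitor, had levels of -0.42 and -0.37 on the MGT day 3 arrays, -6.72 and -8.09 on the lacZ day 3 arrays and -4.59 and -4.30 on the day 0 arrays, a difference of 4.05 (SE 0.51, adjusted p = 1.25e-05) from day 0. Wif1 was not well above background with lacZ, so that MGT was at least 47.05-fold higher than lacZ. Sfrp2, another secreted antagonist, differed by -3.85 (adjusted p = 2.04e-08). The transcription factors Lef1 and Tcf7 differed by -2.24 (adjusted p = 0.000799) and -2.54 (adjusted p = 0.000491), with Tcf7 well above background on 1 of the MGT arrays. Of 21 TGF-beta pathway genes 7 passed as higher and 13 as lower, against 5 higher and 8 lower with lacZ. The latency protein Ltbp2 and the activin subunit Inhba were lower, at -2.28 (adjusted p = 2.26e-09) and -1.85 (adjusted p = 4.07e-10), and Ltbp3 was higher, at 1.38 (adjusted p = 4.17e-09). Of 17 BMP and Id genes 5 passed as higher and 9 as lower, against 4 higher and 7 lower with lacZ. The receptor Bmpr1b had levels of -3.44 and -3.35 on the MGT day 3 arrays, -1.90 and -1.92 on the lacZ day 3 arrays and 0.63 and 0.69 on the day 0 arrays, a difference of -4.06 (SE 0.30, adjusted p = 8.63e-08). Id1, a target of BMP signalling, differed by -1.29 (adjusted p = 1.52e-06). Of 16 Notch pathway genes 4 passed as higher and 8 as lower, against 5 higher and 5 lower with lacZ. With MGT the noncanonical ligand Dlk1 was at -3.34 (adjusted p = 8.92e-10) and the target Heyl at 2.26 (adjusted p = 1.46e-08). Of 12 genes of the insulin-like growth factor axis 7 passed as higher and 3 as lower, against 8 higher and 4 lower with lacZ. Igfbp5, an IGF-binding protein, had levels of 2.90 and 3.09 on the MGT day 3 arrays, -1.35 and -1.29 on the lacZ day 3 arrays and -0.71 and -0.57 on the day 0 arrays, and its difference from day 0 was 3.63 (SE 0.07, adjusted p = 4.55e-13) with MGT and -0.68 (adjusted p = 4.38e-06) with lacZ. The imprinted pair Igf2 and H19 were both lower, at -2.40 (adjusted p = 0.000111) and -1.80 (adjusted p = 0.001). Of 19 secretory granule and neuronal genes 8 passed as higher and 6 as lower, against 7 higher and 5 lower with lacZ. Apart from Scg2, the neuronal tubulin Tubb3 was 4.11 (adjusted p = 3.80e-10) above day 0, and the neuropeptide precursors Penk and Tac1 had differences of -4.22 (adjusted p = 2.21e-06) and -4.02 (adjusted p = 0.00032).

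Markers of other cell types that a fibroblast preparation can hold were measured as well. In these bulk samples fewer cells of a type and less RNA per cell cannot be told apart. Of 20 macrophage markers 7 passed as higher and 4 as lower with lacZ, and 8 as higher and 2 as lower with MGT (median 0.14). With only the 4 arrays of the comparison fitted, 9 passed as higher and 8 as lower, so the lean towards higher did not hold. Without 1 of these arrays the median ran from 0.11 to 0.20. The summed signal (log2) of the list was 7.75 and 7.69 with MGT, 7.44 and 7.48 with lacZ and 7.07 and 6.92 at day 0. The complement gene C1qc had levels of 2.64 and 2.65 on the MGT day 3 arrays, 2.47 and 2.42 on the lacZ day 3 arrays and -0.15 and -0.10 on the day 0 arrays, a difference of 2.77 (SE 0.44, adjusted p = 9.67e-05). Mrc1 and Lyz1 were 2.40 and 2.14 above day 0, and the call of Mrc1 was lost without any 1 of the 4 arrays (adjusted p of 0.0898 to 0.114). The macrophage surface gene Adgre1, named after its value was seen, had a difference of -0.82 (adjusted p = 0.0322). Endothelial markers were mostly lower, 13 of 17 with 1 higher, and 10 were lower when any 1 of the 4 arrays was left out. The 1 higher was the receptor gene Kdr, at 1.19. A second probe of Kdr passed at -1.84, so no direction is given for it, and with the mean of the probes 0 endothelial markers were higher. For the endothelial list as a whole, 1 marker was higher and 6 were lower with lacZ than at day 0. Its summed signal was 5.58 and 5.58 with MGT, 6.03 and 6.03 with lacZ and 6.52 and 6.53 at day 0. The tight junction gene Cldn5 had levels of -3.52 and -3.58 on the MGT day 3 arrays, -2.22 and -2.35 on the lacZ day 3 arrays and 1.38 and 1.15 on the day 0 arrays, a difference of -4.82 (SE 0.27, adjusted p = 4.90e-09), and the factor Sox18 differed by -3.04 (adjusted p = 2.60e-06). The calls of the cadherin Cdh5 and of Emcn were lost without any 1 of the 4 arrays (adjusted p of 0.0546 to 0.107). Of 13 epicardial and mesothelial markers 8 passed as higher and 3 as lower, against 8 higher and 2 lower with lacZ. With MGT the uroplakin Upk1b was at 2.52 (adjusted p = 6.09e-09) and the retinoic acid enzyme Aldh1a2 at -1.75 (adjusted p = 1.66e-09). All 13 were well above background on at least 1 array of each group, and their summed signal was 5.60 and 5.62 with MGT, 5.25 and 5.26 with lacZ and 6.03 and 5.95 at day 0. The sum was thus lower at day 3 although more members passed as higher than as lower. Of 8 pericyte markers 4 passed as higher and 3 as lower (2 and 2 without the first MGT array), of 7 glial markers 2 passed as higher and 3 as lower (1 higher and 2 or 3 lower when 1 array was left out), and of 9 lymphocyte and red cell markers 1 passed as higher and 4 as lower. Of those 9, 4 were not well above background on either MGT array, 5 on either lacZ array and 2 on either day 0 array. With lacZ the pericyte list had 3 higher and 2 lower, the glial list 1 and 2, and the lymphocyte and red cell list 2 and 4. The alpha globin gene Hba-a1 had mean levels of -4.22 with MGT, -4.05 with lacZ and -0.32 at day 0, a difference of -3.90 (SE 0.23, adjusted p = 6.77e-09). The part of these shifts in the other results was not tested.

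By day 14 of MGT, on a slide of its own, 12736 of 18061 genes passed against the same day 0 arrays (70.5%), 5972 as higher (33.1%) and 6764 as lower (37.5%). In the sarcomere list 26 of 32 members were higher and 3 lower (median 4.97), beside 24 and 3 at day 3. Myl7 levels were 6.92 and 6.83 at MGT day 14, a difference of 9.03 from day 0 beside 7.20 at day 3. Casq2 differed by 8.54 beside 6.14 at day 3, whereas Mef2c differed by 3.67 beside 6.57. In the interferon list 31 members were lower at day 14 and 0 higher (median -1.56), beside 31 and 0 at day 3 (median -1.33). Rsad2 levels were 0.60 and 0.52 at MGT day 14 and Ifit3 levels 3.80 and 3.61, above those at MGT day 3 and below those at day 0. In the fibroblast identity list 10 were higher and 11 lower (median -0.24), beside 13 and 11 at day 3. The day 3 and day 14 differences share the day 0 arrays and were not tested against each other.

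**Figure D5:**
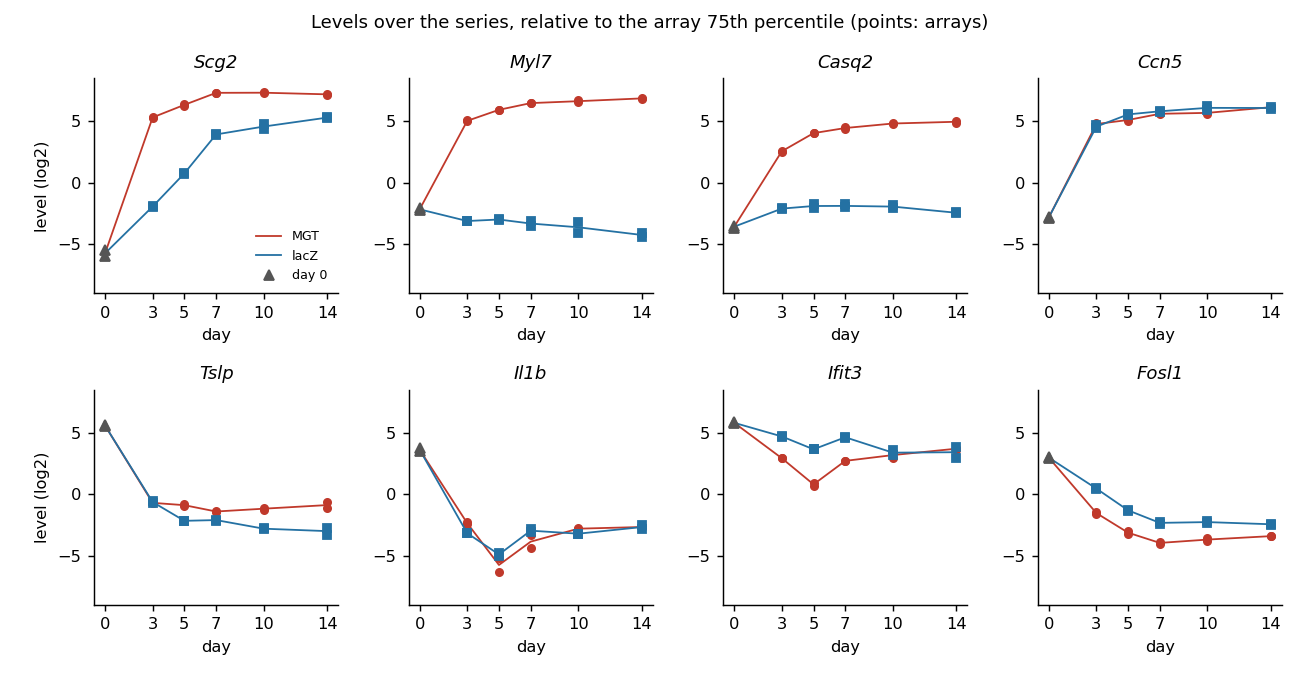
Levels of 8 genes over the days of the series, log2 relative to the array 75th percentile, with points for single arrays, lines through the group means of MGT and lacZ, and triangles for the 2 day 0 arrays. Day 0 and day 14 lacZ lay on 1 slide, days 3 and 5 on another, days 7 and 10 on another and day 14 MGT on its own. The largest part of each distance between day 0 and day 14 is present by day 3 for Ccn5, Tslp and Il1b in both vectors and for Myl7 and Casq2 in MGT, while the lacZ mean of Scg2 is highest at day 14.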

How the data were processed

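Total RNA was hybridised to 1-colour Agilent mouse arrays, 22 in 11 groups of 2, and the deposited files hold the scanner's intensity values from Feature Extraction 10.7.3.1 on an mm9 design, per the file headers. The processed intensity, corrected for background per the file headers, was taken as deposited, scaled to the 75th percentile of the non-control spots on its array and turned to log2. The authors also deposited a table of normalized intensities, whose scale and centring are not stated. It was turned to log2 and used as an alternative, and matched 18035 of 34378 names. The submitters' processing notes name limma. Spots marked as outliers were dropped and spots of a probe averaged. In all, 38813 probes were kept, those well above background on each array of 1 group or more. Of 55681 non-control probes 30185 were named through RefSeq tables, and the brightest probe stood for a gene with several. Group means were fitted with limma 3.58.1 in R 4.3.3 over all arrays and adjusted by Benjamini-Hochberg, with 11 residual degrees of freedom and a threshold of 0.05. Promoters of 250 bases before the RefSeq gene start come from GRCm38.p6.

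The members, the 37 gene lists and the tests were chosen with earlier results of these data known, so the lists are descriptions. Named genes are the delivered factors, the 15 largest rises and falls well above background on all 4 arrays, the 6 largest bounds each way, the 8 largest rises and falls that also passed against lacZ, the 6 largest each way within 0.25 of lacZ, and the 6 members of each list that differed most. Other members, where named, were chosen after their values were seen. Replicate numbers did not pair the samples. Alternatives were other background, scaling, filter, probe and variance settings, a replicate block and leaving out each array. The fit without the second day 14 lacZ array was chosen after seeing the data.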

Additional observations from a re-analysis of the deposited data

Results flagged for a closer look

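In 9 named genes MGT was called above and lacZ below the shared day 0 arrays. The genes were chosen for these opposite calls, which fix the sign of the difference between MGT and lacZ, so that difference is given as a description and no test is drawn from it. Among muscle genes, the log2 difference of MGT day 3 from lacZ day 3 was 8.15 for the light chain Myl7, 6.70 for sarcolipin, Sln, 2.97 for myoglobin, Mb, 2.61 for the splicing factor Rbm24 and 2.06 for Hopx. Among secreted proteins, it was 4.32 for Igfbp5 and 2.13 for Col12a1. The Wnt inhibitor Wif1 stood at least 47.05-fold above lacZ, where neither array was well above background. The oxygen sensor Egln3 differed by 2.47. For each of these genes both arrays of MGT stood above both arrays of lacZ, which the choice of genes all but fixed, so it adds no support.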

How the results depend on the processing

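Over 15 alternatives the number of genes that passed between MGT day 3 and day 0 ran from 9772 to 12225, beside 11265, and from 9772 to 10060 without 1 of the 4 arrays. The number at least 2-fold apart ran from 3219 to 4617, beside 4342. Between MGT and lacZ at day 3 it was 1460, but 890 with normexp background correction and 907 with only probes above background on all 4 arrays. Leaving out 1 of the 4 arrays of that comparison lowered the number of calls. The median difference over all genes then ran from -0.0648 to -0.0554, beside -0.0599. Between lacZ day 3 and day 0, leaving out 1 of the 4 arrays compared also lowered the number of calls. The median over all genes there ran from -0.0065 to 0.0034, beside -0.005. No call was reversed. Of the values of named genes under the alternatives, 3770 kept their side of the threshold between MGT day 3 and day 0 and 55 lost a call, while between MGT and lacZ on day 3, 4130 kept it, 106 lost a call and 105 gained one. With the 75th percentile over probes above background on every array, the median of all genes was 0.08, beside -0.03, so differences shift by that amount. The medians of the cholesterol synthesis, respiratory chain, secretory granule, pericyte, and lymphocyte and red cell lists changed sign under some alternative. That of the sarcomere list ran from 1.61 to 2.40, and that of the interferon list from -1.38 to -1.20. A replicate block left 11247 genes called and 4343 at least 2-fold apart, and the replicate deviations of MGT day 3 and day 0 correlated at 0.019, so the numbers gave no pairing. A fit with the slide as a block could not be made for differences from day 0, since slide and condition cannot be told apart there. The fit without the second day 14 lacZ array, added after seeing the data, called 12225 genes. The number of arrays and the signal over background limit what low genes show.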

Other observations

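The arrays also carry probes in regions of long intergenic noncoding RNAs, which have no gene name here. Of 9193 kept, 1910 were higher and 1528 lower in MGT day 3 than at day 0, with 922 and 802 at least 2-fold. Among all 38813 kept probes, these included, 20034 were called in either direction between the same groups. Against lacZ day 3, 504 of the 9193 region probes were higher and 424 lower. No count over all kept probes was made for this comparison, for single directions or for the 2-fold sizes.

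Further members of the excitation and stress lists, chosen after their values were seen, are given as values. The sodium-calcium exchanger gene Slc8a1 had levels of -2.97 and -2.88 on the MGT day 3 arrays, -3.25 and -3.34 on the lacZ day 3 arrays and -4.24 and -4.02 on the day 0 arrays, a difference of 1.20 (adjusted p = 5.66e-06) from day 0. A dimmer probe of Slc8a1 gave 3.52. The brighter probe of the potassium channel gene Kcna5 had a difference of -0.19 (adjusted p = 0.171) and did not pass, while its dimmer probe gave 3.50 (adjusted p = 5.45e-05). The very low density lipoprotein receptor gene Vldlr had levels of 4.76 and 4.74 on the MGT day 3 arrays, 3.66 and 3.74 on the lacZ day 3 arrays and 1.60 and 1.47 on the day 0 arrays, with differences from day 0 of 3.21 (adjusted p = 9.64e-13) in MGT and 2.16 (adjusted p = 7.77e-11) in lacZ cultures.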
